A study of Caenorhabditis elegans with 8 samples.

Results

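The C-type lectin genes of Caenorhabditis elegans carry clec symbols and encode proteins with a C-type lectin-like domain, a fold that in many animals binds sugars in a calcium-dependent way. Most of the worm proteins are predicted to be secreted or membrane proteins. Many are made in the intestine, and different members are induced by different bacterial and fungal pathogens, so the family is often read as part of the intestinal defence response. What most single members bind is not known. Members were chosen by name alone: every gene of the deposited count table whose WormBase symbol is clec followed by a number, which gave 240 of 20392 genes.

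Total RNA was sequenced from L1 larvae of 4 genotypes, with 2 libraries of each, called a and b. The double mutant (strain GW1468) carried an integrated ygIs transgene of GFP fused to the lamin LMN-1 with the mutation Y59C, driven by the baf-1 promoter and marked with unc-119(+), in an unc-119(ed-3) background, together with the cec-4(ok3124) allele on chromosome IV. The lamin Y59C strain (GW653) carried the same transgene and unc-119(ed-3) with intact cec-4. The cec-4 mutant (GW828) carried cec-4(ok3124) alone, and the wild-type was N2. CEC-4 is a chromodomain protein of the nuclear envelope that tethers chromatin methylated on lysine 9 of histone H3 in embryos, and Y59C corresponds to a lamin mutation of Emery-Dreifuss muscular dystrophy. The endogenous lmn-1 gene remains in every strain. Since a strain with unmutated GFP-lamin was not analysed here, effects of the mutation cannot be told apart from those of carrying the transgene and of the unc-119 background. Larvae of all groups had hatched without food for 16 h, were fed OP50 bacteria for 2.5 h and were sorted against green balancer animals. Whether libraries a and b are separate cultures is not in the labels; p-values therefore measure the spread between libraries, which may be technical.

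The libraries held 30924676 to 57069281 counts, the most in wild-type b. The genotype genes followed the labels: cec-4 had 4.35 to 4.61 counts per 1000000 (CPM) in the double mutant and 4.76 to 5.04 CPM in the cec-4 mutant, against 12.3 CPM in each lamin Y59C library and 12.7 to 14.5 CPM in wild-type. The marker gene unc-119 had 43.1 to 43.3 CPM in the double mutant and 41.5 to 41.8 CPM in lamin Y59C, against 22.4 to 24.3 CPM in the cec-4 mutant and 22.5 to 23.4 CPM in wild-type.

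The family lay mostly on chromosome arms and away from the X chromosome. In the WBcel235 annotation, 86 members were on chromosome V (35.8%, against 25.04% of all protein-coding genes), 53 on IV, 48 on II, 36 on I, 14 on III and 3 on X (1.25%, against 13.7%). In the outer 25% at either end of a chromosome lay 157 members (65.4%, against 44.4% of all protein-coding genes). A member had another clec gene as its next protein-coding neighbour in 125 cases, which formed 41 runs, the longest of 13 genes. The summed exon length of a member had a median of 1044.5 bp and ran between 345 and 10850 bp. Another protein-coding gene overlapped 40 members, and counts of those are uncertain because the counting method is not given in the sources used here.

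A large part of the family was silent or nearly so at this stage. No count in any library was found for 46 members (19.2%, against 7.91% of all genes), and 44 further members had between 1 and 10 counts over all 8 libraries. The symbol clec-15 stands for a pair of gene IDs, WBGene00010399 and WBGene00011584, both with 0 counts. A filter on low counts left 113 members for testing. The other 127 include 81 with some counts, at most 70 in total. The filter asks for counts in at least as many libraries as a group holds, so a low member can pass through the group where it is high. No member had 10 or more counts in each library of a group and 0 in each library of another.

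Levels of different genes are compared as CPM per kilobase of exon, averaged over the 8 libraries. On this scale 82 members reached 1, 38 reached 10 and 4 reached 100, and the median of tested members was 3.93, against 10.6 for all tested genes. The highest was clec-63 with a mean of 1080 CPM per kb and libraries between 1019 and 1175. It was followed by clec-50 at 358 (331 to 383), clec-1 at 259 (186 to 324), clec-42 at 152 (97.3 to 199) and clec-65 at 93.7 (85.2 to 99.7). The libraries of these 5 genes did not overlap on this scale except between clec-42 and clec-1 and between clec-42 and clec-65. Next came clec-17 at 74.1 (55.4 to 102), clec-265 at 73.8, clec-150 at 70.95, clec-72 at 66.4 and clec-84 at 61.5, where each overlapped the next in line, so the order of neighbours was not resolved. The 10 members with most CPM held 71.7% of all clec counts so scaled.

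**Figure D1:**
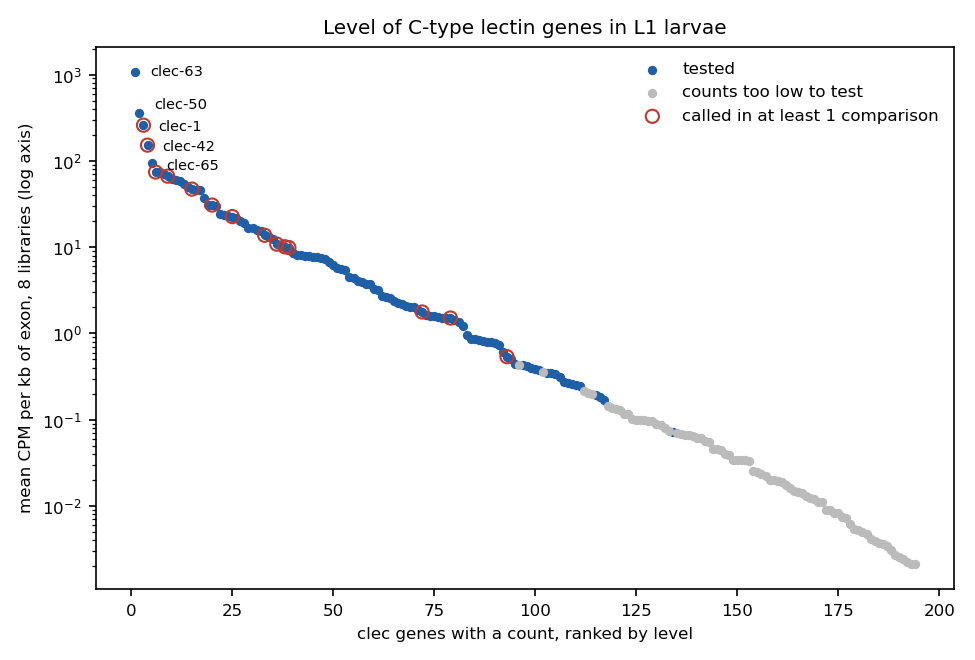
Mean level over the 8 libraries of the 194 clec genes with a count, in CPM per kilobase of exon on a log axis, against rank. Blue points were tested, grey points had too few counts, and red rings mark members called in at least 1 comparison. The level drops from 1080 for clec-63 to below 10 after 38 members.

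Summed over the family, clec RNA was lowest in the double mutant. The sum was 3669 and 3645 CPM in the double mutant, 4328 and 4046 CPM in lamin Y59C larvae, 4119 and 4119 CPM in the cec-4 mutant, and 4021 and 4043 CPM in wild-type. Both double mutant libraries lay below the other 6. The sum mainly follows a few abundant members, as the 10 with most CPM held 71.7% of it. In these whole-larva samples, fewer cells of a type and less RNA per cell cannot be told apart. The double mutant had the lowest group mean for 51 of 113 tested members (45.1%, against 28.2% of all tested genes), lamin Y59C the highest for 40 (35.4%, against 24.9%) and the cec-4 mutant the highest for 34 (30.1%, against 20.8%). Among the 54 members that averaged 5 CPM or more, a bound chosen after the values were seen, the double mutant was lowest for 30 (55.6%, against 27.8% of all tested genes above that bound) lamin Y59C highest for 25 (46.3%, against 24.8%) and the cec-4 mutant highest for 17 (31.5%, against 17.02%).

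The comparison of the double mutant with lamin Y59C asks what loss of CEC-4 does where the mutant lamin is present. Here clec-42, clec-7 and clec-17 fell and no member rose. That is 3 of 113 lower, with 0.502% of all tested genes called lower and 0.174% called higher in edgeR's quasi-likelihood test at an adjusted p under 0.05. A negative change, called or not, was found for 74 of the 113 (65.5%, against 49.2% of all tested genes), with a median of -0.08 on the log2 scale against 0.00 over all tested genes. Of the 54 members with at least 5 CPM, 44 had a negative change (81.5%, against 47.7%). The libraries of the 2 groups did not overlap for 41 members lower in the double mutant (36.3%, against 21.9% of all tested genes) and for 18 higher (15.9%, against 22.5%).

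The gene clec-42 (WBGene00008891, chromosome V, 18191412 to 18194168 on the plus strand) is one of the members that worm studies link to defence against Bacillus thuringiensis. It had 188 and 170.0 CPM in the double mutant, 348 and 293 CPM in lamin Y59C larvae, 281 and 342 CPM in the cec-4 mutant, and 243 and 260.4 CPM in wild-type. Both double mutant libraries were the lowest of the 8, and the lamin Y59C and cec-4 mutant libraries, which overlapped each other, lay above wild-type. The change between the double mutant and lamin Y59C was -0.84 ± 0.11 (log2 ± SE, adjusted p = 0.0122).

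The gene clec-7 (WBGene00017364, chromosome V, 7328392 to 7330002, plus strand) had 11.5 and 12.5 CPM in the double mutant, against 17.2 and 17.2 CPM in lamin Y59C, while the cec-4 mutant had 14.5 and 15.0 CPM and wild-type 14.6 and 15.8 CPM. Lamin Y59C was above every other group and the double mutant below every other group, with a change of -0.52 ± 0.08 between them (adjusted p = 0.0255). The gene clec-17 (WBGene00008477, chromosome I, 12430028 to 12431500, minus strand) had 79.4 and 73.6 CPM in the double mutant, against 135 and 107 CPM in lamin Y59C, while the cec-4 mutant had 90.3 and 108 CPM and wild-type 89.2 and 105 CPM. Its change was -0.66 ± 0.12 (adjusted p = 0.0462); the double mutant libraries were the lowest, and only lamin Y59C a stood clear of the libraries without the transgene. Without lamin Y59C a, or without either double mutant library, all 3 calls ended, with adjusted p-values of 0.0928 to 0.326, and leaving out lamin Y59C b ended that of clec-7 (0.0731).

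**Figure D2:**
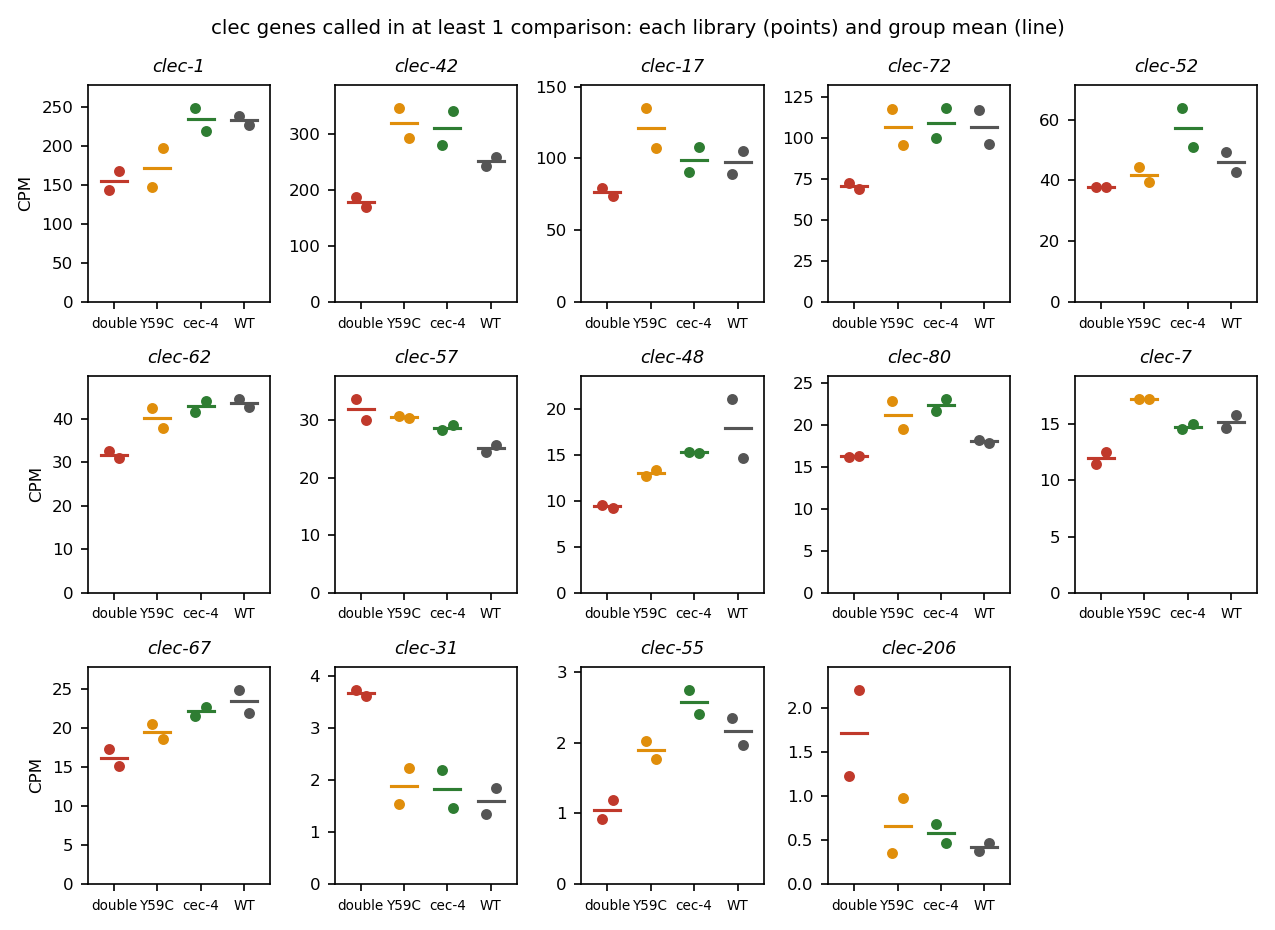
CPM of the 14 clec genes called in at least 1 comparison, for each library (points) and as the group mean (line), with a separate axis from 0 for each gene. Groups run from the double mutant through lamin Y59C and the cec-4 mutant to wild-type. For clec-42 the double mutant libraries sit at 188 and 170.0 CPM, below the other 6.

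Against the cec-4 mutant, the double mutant shows what the mutant lamin goes with where CEC-4 is absent. Here 5 members fell, clec-42, clec-55, clec-62, clec-52 and clec-80, and none rose, with 0.509% of all tested genes called lower and 0.265% called higher. Negative changes were found for 70 of 113 members (61.9%, against 50.6% of all tested genes), with a median of -0.08 against 0.00. For 43 members the double mutant libraries were both below those of the cec-4 mutant (38.1%, against 21.6%), and for 19 both above (16.8%, against 20.3%).

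The change of clec-42 in this comparison was -0.80 ± 0.11 (adjusted p = 0.0117). The largest change was that of clec-55 (WBGene00008597, chromosome V, 14479279 to 14482317, plus strand), a low gene with 0.919 and 1.18 CPM in the double mutant, against 2.75 and 2.41 CPM in the cec-4 mutant, while lamin Y59C had 2.02 and 1.77 CPM and wild-type 2.35 and 1.97 CPM. Its change was -1.29 ± 0.21 (adjusted p = 0.0251). In the annotation R02D5.10 overlaps it on the same strand and R02D5.7 on the opposite strand, so its counts are uncertain.

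The gene clec-62 (WBGene00009393, chromosome II, 12893062 to 12895128, minus strand) had 32.7 and 30.9 CPM in the double mutant, against 41.7 and 44.1 CPM in the cec-4 mutant, while lamin Y59C had 42.5 and 37.9 CPM and wild-type 44.6 and 42.6 CPM. The double mutant stood below all other libraries, which overlapped among themselves, and the change was -0.43 ± 0.07 (adjusted p = 0.0275). The gene clec-52 (WBGene00015052, chromosome IV, 8167164 to 8168760, minus strand) had 37.7 and 37.9 CPM in the double mutant, against 63.9 and 50.9 CPM in the cec-4 mutant, while lamin Y59C had 44.4 and 39.4 CPM and wild-type 49.3 and 42.8 CPM. For clec-52 the cec-4 mutant was the high group, and the change was -0.60 ± 0.11 (adjusted p = 0.0387).

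The gene clec-80 (WBGene00043062, chromosome IV, 2823746 to 2828069, plus strand) had 16.2 and 16.2 CPM in the double mutant, against 21.6 and 23.1 CPM in the cec-4 mutant, while lamin Y59C had 22.8 and 19.5 CPM and wild-type 18.2 and 17.9 CPM. Both single strains lay above wild-type and the double mutant below it, with a change of -0.46 ± 0.09 from the cec-4 mutant (adjusted p = 0.0421). Without either of the double mutant libraries all 5 calls ended (adjusted p between 0.0569 and 0.271). Leaving out cec-4 mutant a ended those of clec-55 (0.0691), clec-52 (0.0916) and clec-80 (0.0620), leaving out cec-4 mutant b those of clec-55 (0.0660), clec-62 (0.141) and clec-80 (0.194), and leaving out wild-type a or wild-type b that of clec-80 (0.0671 and 0.0651).

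The interaction compares the lamin Y59C effect in larvae without CEC-4 with the same effect in larvae that have it, as the difference of the log2 changes. It was called for clec-42 alone among the members, with 0.0348% of all tested genes called, all of them lower. The lamin Y59C effect on clec-42 was -0.80 ± 0.11 without CEC-4 and 0.35 ± 0.10 with it (adjusted p = 0.175 for the effect with CEC-4), and the difference was -1.15 ± 0.15 (adjusted p = 0.0476). The call ended without wild-type a (0.185), wild-type b (0.0865), cec-4 mutant b (0.0950), lamin Y59C a (0.171), and also without a double mutant library (0.204 for a, 0.300 for b), and the difference stayed between -1.28 and -1.001. Next in order of p were clec-80, with a difference of -0.70 ± 0.12 (adjusted p = 0.116), and clec-25, with -1.29 ± 0.30 (adjusted p = 0.232). DESeq2 called clec-42, clec-17, clec-80, clec-165 and clec-72 lower, with 0.252% of the genes it tested called lower; the last 4 are named here for that count.

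Negative interaction values, called or not, were found for 78 of 113 members (69.0%, against 50.9% of all tested genes) and for 46 of the 54 with at least 5 CPM (85.2%, against 48.1%). The median was -0.13 over the members and 0.00 over all tested genes. The interaction and each comparison of the double mutant use the same double mutant libraries, so their negative changes are not separate results. The effect of lamin Y59C without CEC-4 and its effect with CEC-4 use separate libraries. Of the 54 members, 25 were higher with CEC-4 and lower without it (46.3%, against 21.1% of all tested genes with at least 5 CPM), 14 were higher in both backgrounds, 13 lower in both and 2 lower with CEC-4 and higher without it. Over the 54 members the Pearson correlation of the 2 effects was 0.28, against 0.23 over all tested genes with at least 5 CPM, a description across genes that share libraries within each effect. Over all 113 tested members the split was weaker: 37 were higher with CEC-4 and lower without it (32.7%, against 23.3% of all tested genes). There the correlation was 0.17, against 0.22 over all tested genes, so its order against all genes depended on the bound.

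**Figure D3:**
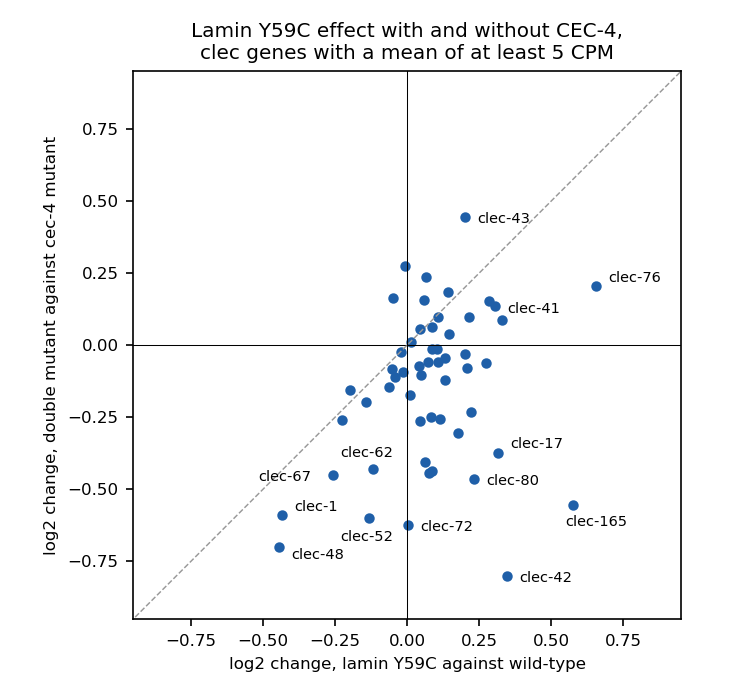
Log2 change of the double mutant against the cec-4 mutant (vertical) and of lamin Y59C against wild-type (horizontal) for the 54 clec genes that averaged 5 CPM or more; each point is a gene, and the dashed line marks equal effects. The lower right field, higher with CEC-4 and lower without it, holds 25 genes, with clec-42 at 0.35 and -0.80.

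Between the double mutant and wild-type, 10 members were called. The 7 that fell were clec-62, clec-48, clec-67, clec-72, clec-55, clec-42 and clec-1, with 1.44% of all tested genes called lower. The 3 that rose were clec-31, clec-57 and clec-206, with 0.773% called higher. Negative changes were found for 68 of 113 (60.2%, against 48.7%), and the median was -0.07 against 0.01 over all tested genes. The double mutant libraries were both below those of wild-type for 36 members (31.9%, against 24.8%) and both above for 25 (22.1%, against 25.7%).

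Of those that fell, clec-48 (WBGene00007565, chromosome V, 18158026 to 18159614, plus strand) had 9.59 and 9.22 CPM in the double mutant, 12.7 and 13.3 CPM in lamin Y59C larvae, 15.3 and 15.2 CPM in the cec-4 mutant, and 21.1 and 14.7 CPM in wild-type. Its change was -0.91 ± 0.15 (adjusted p = 0.0148), and wild-type b lay below both cec-4 mutant libraries. The gene clec-67 (WBGene00018971, chromosome IV, 3922165 to 3925039, plus strand), a target of the p38 MAP kinase PMK-1 in intestinal immunity, had 17.3 and 15.1 CPM in the double mutant, 20.5 and 18.5 CPM in lamin Y59C larvae, 21.5 and 22.7 CPM in the cec-4 mutant, and 24.9 and 21.9 CPM in wild-type. For clec-67 the double mutant was lowest and lamin Y59C next, while the cec-4 mutant and wild-type overlapped, and the change was -0.53 ± 0.09 (adjusted p = 0.0239).

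The gene clec-72 (WBGene00021583, chromosome IV, 3944816 to 3947362, plus strand) had 72.7 and 69.2 CPM in the double mutant, 118 and 95.7 CPM in lamin Y59C larvae, 99.9 and 118.6 CPM in the cec-4 mutant, and 117 and 96.6 CPM in wild-type. The 3 other groups overlapped, and only the double mutant stood apart, with a change of -0.59 ± 0.12 (adjusted p = 0.0392). The gene clec-1 (WBGene00017772, chromosome V, 5700154 to 5701080, plus strand) had 144 and 168 CPM in the double mutant, 148 and 198 CPM in lamin Y59C larvae, 249.6 and 220.0 CPM in the cec-4 mutant, and 239.6 and 228 CPM in wild-type. For clec-1 the libraries divided by the transgene: all 4 with lamin Y59C lay below all 4 without it, and the change in the double mutant was -0.58 ± 0.13 (adjusted p = 0.0467). The changes of clec-62, clec-55 and clec-42 from wild-type were -0.45 ± 0.07 (adjusted p = 0.0134), -1.02 ± 0.21 (0.0395) and -0.49 ± 0.11 (0.0458).

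Of those that rose, clec-31 (WBGene00009854, chromosome V, 16856419 to 16858077, minus strand) had 3.74 and 3.62 CPM in the double mutant, 1.54 and 2.24 CPM in lamin Y59C larvae, 2.19 and 1.47 CPM in the cec-4 mutant, and 1.35 and 1.85 CPM in wild-type. The double mutant stood above 6 overlapping libraries, with a change of 1.17 ± 0.23 (adjusted p = 0.0365). The gene clec-57 (WBGene00008594, chromosome V, 14469231 to 14472448, plus strand) had 33.6 and 30.0 CPM in the double mutant, 30.7 and 30.3 CPM in lamin Y59C larvae, 28.2 and 29.1 CPM in the cec-4 mutant, and 24.4 and 25.7 CPM in wild-type. For clec-57 wild-type was the lowest group and the double mutant overlapped lamin Y59C; the change was 0.34 ± 0.07 (adjusted p = 0.0395).

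The gene clec-206 (WBGene00019089, chromosome V, 2000418 to 2004329, minus strand) was near the limit of testing, with 1.23 and 2.21 CPM in the double mutant, 0.347 and 0.978 CPM in lamin Y59C larvae, 0.687 and 0.471 CPM in the cec-4 mutant, and 0.377 and 0.461 CPM in wild-type. Its change was 1.99 ± 0.43 (adjusted p = 0.0473), and the double mutant libraries differed from each other by more than the other groups' means did. Without either of the double mutant libraries all 10 calls ended (adjusted p between 0.0634 and 0.280). Leaving out wild-type a left only clec-48 of them (0.118 to 0.286 for the others), leaving out wild-type b ended those of clec-31, clec-55, clec-57, clec-42, clec-1 and clec-206 (0.0611 to 0.144), and leaving out lamin Y59C a or lamin Y59C b ended those of clec-55 and clec-57 (0.0560 to 0.0628).

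**Figure D4:**
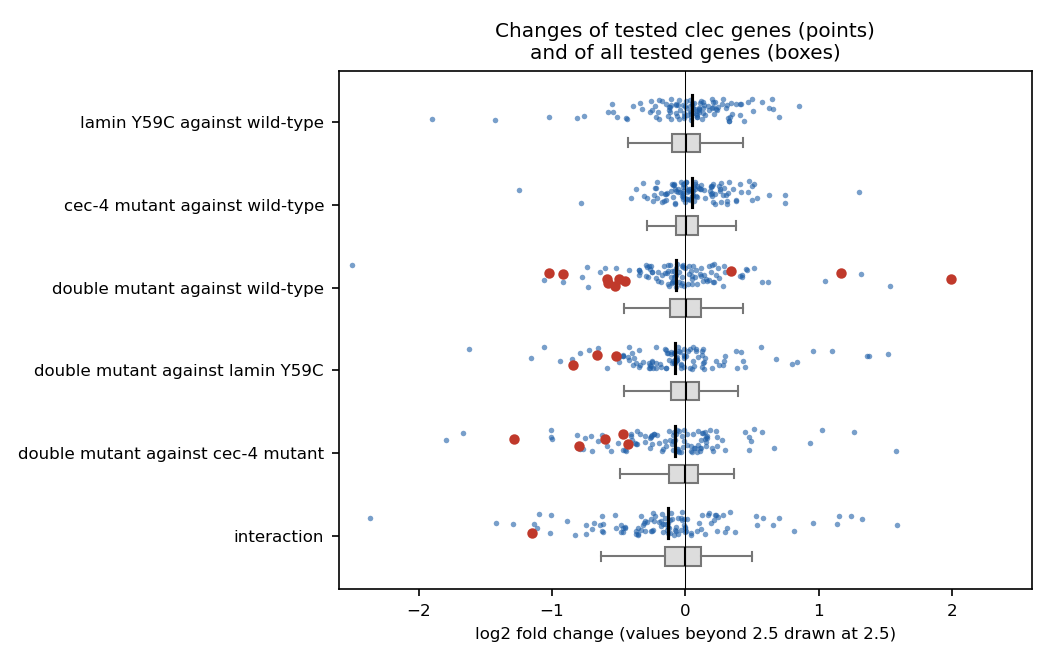
Log2 fold changes of the 113 tested clec genes (points, red where called, black tick at their median) in each of the 6 comparisons. The points lie above a box of all 14355 tested genes, which spans their quartiles. The whiskers run to outer percentiles of all tested genes and leave out the most extreme ones. Red points appear in the comparisons of the double mutant and in the interaction, 10 of them against wild-type.

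In lamin Y59C with intact cec-4 and in the cec-4 mutant, no member was called against wild-type, where 0.509% and 0.0209% of all tested genes were called. At an unadjusted p under 0.05 in edgeR's quasi-likelihood test, 11 members were higher and 9 lower in lamin Y59C, that is 9.73% and 7.96% of the members, against 6.99% and 7.59% of all tested genes. By the same measure 10 were higher and 1 was lower in the cec-4 mutant, that is 8.85% and 0.885%, against 2.55% and 2.33%. DESeq2 called 3 members in lamin Y59C, clec-76 and clec-42 higher (0.65% of all genes it tested) and clec-1 lower (1.06%). In the cec-4 mutant it called 0 members, with 0.0491% of genes called higher and 0.0409% lower. The median change was 0.05 in each of these comparisons, which share the wild-type libraries, against 0.00 and 0.01 over all tested genes.

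The smallest p-values in lamin Y59C belonged to clec-64, clec-57 and clec-223. The gene clec-64 had 34.9 and 32.1 CPM in lamin Y59C, against 27.3 and 28.1 CPM in wild-type, a change of 0.27 ± 0.07 (adjusted p = 0.127). The change of clec-57 was 0.28 ± 0.07 (adjusted p = 0.127), from the values given above. For clec-223, at 0.126 and 0.0631 CPM in lamin Y59C against 0.377 and 0.355 CPM in wild-type, the change was -1.90 ± 0.51 (adjusted p = 0.146). It was near the limit of testing, where a low member can pass the filter through the group where it is high. In the cec-4 mutant the smallest p-values belonged to clec-80 at 0.31 ± 0.08, clec-52 at 0.32 ± 0.11 and clec-42 at 0.31 ± 0.11 (log2 ± SE), each with an adjusted p of 0.897.

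Neighbours in a run did not all move alike. The run of clec-62 to clec-66 on chromosome II (12893062 to 12906644) holds the most abundant member. There clec-62 was called lower in the double mutant, while the adjoining clec-63 had 1322 and 1339.5 CPM in the double mutant, against 1435 and 1362 CPM in the cec-4 mutant and 1410.4 and 1423 CPM in wild-type, a change from wild-type of -0.09 ± 0.07 (adjusted p = 0.530). At the far end clec-66 had 30.6 and 30.7 CPM in the double mutant, against 26.8 and 29.5 CPM in wild-type, a change of 0.12 ± 0.08 (adjusted p = 0.488).

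The run of 5 from clec-57 to clec-55 on chromosome V (14469231 to 14482317, all on the plus strand) held calls of both signs. From one end to the other the changes in the double mutant against wild-type were 0.34 for clec-57, 0.30 for clec-227, 0.16 for clec-56, -0.34 for clec-54 and -1.02 for clec-55 (log2), of which the outermost pair was called. At clec-54, next to clec-55, the double mutant had 13.4 and 13.6 CPM, lamin Y59C 19.03 and 17.1 CPM, the cec-4 mutant 17.6 and 19.1 CPM and wild-type 18.05 and 16.3 CPM (adjusted p = 0.0830 against wild-type).

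In the run of 13 on chromosome V (16839121 to 16869840), 12 members were tested and 1, clec-31, was called, higher in the double mutant than in wild-type, where 0.773% of all tested genes were called higher. Its neighbour clec-22, on the opposite strand, had 1.44 and 2.11 CPM in the double mutant, 0.504 and 0.726 CPM in lamin Y59C larvae, 1.24 and 0.654 CPM in the cec-4 mutant, and 0.628 and 0.763 CPM in wild-type, a change from wild-type of 1.32 ± 0.32 (adjusted p = 0.0688). Against the cec-4 mutant, 9 of the 12 had a negative and 3 a positive change, where 50.6% of all tested genes had a negative change. The run that ends in clec-42 has clec-245 and clec-246 beside it, whose changes in the double mutant against lamin Y59C were -0.42 and 0.10 (adjusted p = 0.774 and 0.937).

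**Figure D5:**
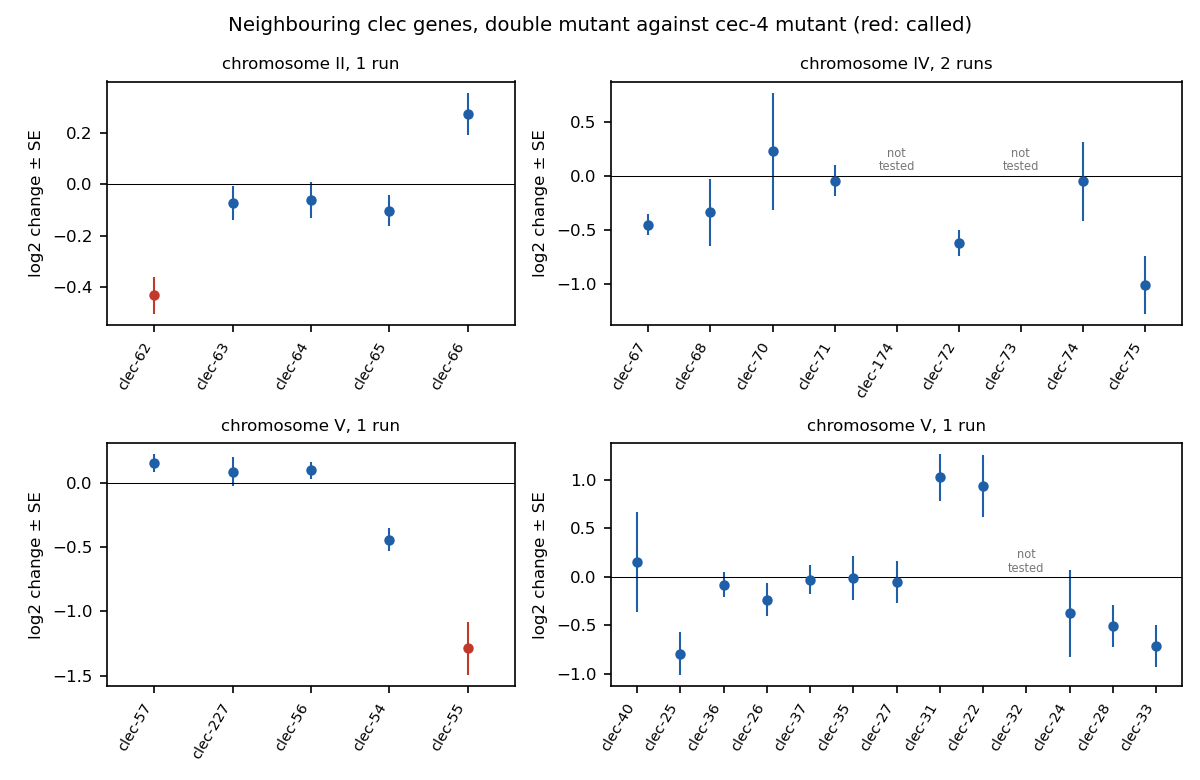
Log2 change ± SE of the double mutant against the cec-4 mutant for 5 runs of neighbouring clec genes in chromosome order (the panel of chromosome IV shows 2 adjoining runs), with called genes in red. Called clec-62 and clec-55 stand at the ends of their runs, and clec-31 and clec-22 are the high pair of the run of 13.

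A list of 12 members linked to infection in earlier worm studies, beside clec-42, was read by its values. Of these, clec-67, clec-17 and clec-52 were called in 1 comparison each, all lower in the double mutant, as given above, and the other 9 were not called. Of all tested genes 1.44% were called lower against wild-type (the comparison of clec-67). The shares were 0.502% against lamin Y59C (clec-17) and 0.509% against the cec-4 mutant (clec-52). The genes clec-4 and clec-41, linked to defence against Bacillus thuringiensis together with clec-42, were not called: clec-4 had 35.2 and 31.5 CPM in the double mutant, 33.8 and 37.4 CPM in lamin Y59C larvae, 30.1 and 28.8 CPM in the cec-4 mutant, and 31.04 and 33.3 CPM in wild-type. For clec-41 the values were 146 and 161 CPM in the double mutant, 172 and 199 CPM in lamin Y59C larvae, 138 and 141 CPM in the cec-4 mutant, and 140.0 and 160.3 CPM in wild-type, with interaction values of 0.04 ± 0.11 for clec-4 and -0.17 ± 0.12 for clec-41 (adjusted p = 0.926 and 0.673).

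The gene clec-60, induced by Staphylococcus aureus and Microbacterium nematophilum, was barely present, with 0.245 and 0.0640 CPM in the double mutant, 0.567 and 0.410 CPM in lamin Y59C larvae, 0.262 and 0.706 CPM in the cec-4 mutant, and 0.408 and 0.231 CPM in wild-type. The same was true of clec-39, whose protein, like that of clec-49, has been reported to bind Serratia marcescens, at 0.213 to 0.674 CPM in all libraries. In contrast clec-49 had 16.1 and 16.2 CPM in the double mutant, against 18.05 and 16.1 CPM in wild-type, and the groups overlapped. The PMK-1 target clec-85 had 45.1 and 43.1 CPM in the double mutant, 47.5 and 45.4 CPM in lamin Y59C larvae, 39.9 and 35.1 CPM in the cec-4 mutant, and 40.8 and 47.6 CPM in wild-type, with adjusted p-values of 0.269 or more in all 6 comparisons. The gene clec-86, also induced by Microbacterium nematophilum, had 7.81 to 10.4 CPM in all libraries. Both clec-85 and clec-86 overlap other genes. The gene clec-71, in the same run of neighbours as clec-67 but not next to it, had 14.6 and 13.7 CPM in the double mutant, against 12.6 and 17.96 CPM in wild-type.

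Other secreted defence genes also had members that fell in the double mutant. Among 38 immune signalling genes, such as pmk-1 and elt-2, 0 were called in any of the 6 comparisons by edgeR, where an unadjusted p under 0.05 was found for 2 higher and 6 lower genes in the double mutant against wild-type, where 8.3% of all tested genes were higher and 9.14% lower by that measure. Of 55 tested lysozyme, saposin and infection response genes, 4 fell and 0 rose in the double mutant against lamin Y59C, where 0.502% of all tested genes were called lower and 0.174% higher, and 6 fell and 1 rose against wild-type, where 1.44% were called lower and 0.773% higher. In lamin Y59C against wild-type 1 of the 55 fell, lys-2 (-0.32 ± 0.06, adjusted p = 0.0453), and 0 rose. There 0.279% of all tested genes were called lower and 0.23% higher. The lysozyme gene lys-7 had 86.8 and 105 CPM in the double mutant, 255 and 244 CPM in lamin Y59C larvae, 163 and 187 CPM in the cec-4 mutant, and 175 and 187 CPM in wild-type. Both lamin Y59C libraries were the highest of the 8 and both double mutant libraries the lowest, with a called interaction of -1.33 ± 0.13 (adjusted p = 0.00983). The saposin-like gene spp-18 had 84.5 and 76.7 CPM in the double mutant, against 155 and 130.2 CPM in lamin Y59C (change -0.82 ± 0.09, adjusted p = 0.00639).

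Of the 12 galectin genes, which encode another lectin family, lec-9 and lec-7 fell in the double mutant against lamin Y59C, where 0.502% of all tested genes were called lower, and lec-9 fell against wild-type (-0.52 ± 0.07, adjusted p = 0.00907). In the DBL-1 TGF-beta pathway, which regulates body size and also defence genes, lon-1 (-0.68 ± 0.08, adjusted p = 0.00497), daf-4 and adt-2 fell among 14 genes in the double mutant against wild-type, where 1.44% of all tested genes were called lower. Of 26 tested feeding and fasting response genes, 3 rose and 2 fell in that comparison, with 0.773% of all tested genes called higher and 1.44% lower. The desaturase gene fat-7 rose by 0.92 ± 0.08 (adjusted p = 0.000594). In lamin Y59C against wild-type, lon-1 was also called lower (-0.54 ± 0.08, adjusted p = 0.0335) and fat-7 higher (0.57 ± 0.08, adjusted p = 0.0184). There 1 of the 14 pathway genes was called, lower, and 2 of the 26 feeding and fasting genes, both higher. Of all tested genes 0.279% were called lower there and 0.23% higher.

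Marker lists of the larval tissues were read beside these values. The 20 intestinal markers in the table, of which only end-1 was at 0 in all libraries, summed to 17155 to 17961 CPM in the double mutant, 17640.2 to 18194 CPM in lamin Y59C larvae, 17247 to 18407 CPM in the cec-4 mutant, and 17889 to 17897 CPM in wild-type, so the groups overlapped. Within the list, the cathepsin B-like gene cpr-1 fell in the double mutant against wild-type (-0.44 ± 0.09, adjusted p = 0.0321), while cpr-5 and pgp-1 rose. That is 1 lower and 2 higher of 19 tested, where 1.44% of all tested genes were called lower and 0.773% higher. The 17 hypodermis and seam markers summed to 356 to 362 CPM in the double mutant, 409 to 418 CPM in lamin Y59C larvae, 402 to 424 CPM in the cec-4 mutant, and 412 to 419.6 CPM in wild-type, with none at 0. In the double mutant against wild-type 2 of 16 tested were called lower, where 1.44% of all tested genes were. An unadjusted p under 0.05 (edgeR) was found there for 0 higher and 7 lower of the 16, against 8.3% and 9.14% of all tested genes. The 7 coelomocyte markers summed to 278 to 279 CPM in the double mutant, 293 to 303 CPM in lamin Y59C larvae, 289 to 295 CPM in the cec-4 mutant, and 293 to 297 CPM in wild-type, with 0 called in that comparison (edgeR; an unadjusted p under 0.05 for 1, lower) and none at 0.

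In lamin Y59C, 4 of the 16 tested hypodermis and seam markers fell against wild-type, where 0.279% of all tested genes were called lower, among them the cuticle collagen genes sqt-3 and rol-6 and the collagen-processing gene dpy-5. These 3 were called higher in the double mutant than in lamin Y59C, where 0.174% of all tested genes were called higher and 0.502% lower. The changes were 2.33 ± 0.34 for sqt-3, 3.46 ± 0.50 for rol-6 and 2.67 ± 0.36 for dpy-5 (log2 ± SE, adjusted p = 0.0220, 0.0220 and 0.0172), while 1 other marker of that list was called lower. All 3 were low genes. In the double mutant sqt-3 had 2.42 and 2.69 CPM, rol-6 1.56 and 1.63 CPM and dpy-5 1.96 and 1.47 CPM. The lamin Y59C libraries had 0.315 and 0.694 CPM of sqt-3, 0.0315 and 0.252 CPM of rol-6 and 0.189 and 0.347 CPM of dpy-5. In the same comparison cpr-1 fell by 0.68 ± 0.09 on the log2 scale (adjusted p = 0.0122). Against wild-type, where 1.44% of all tested genes were called lower and 0.773% higher, the double mutant had 1 of 16 tested pharynx markers called (lower; abu-6 and abu-7 were at 0), 2 of 16 body wall muscle markers (lower), 1 of 22 neuron markers (unc-119, part of the transgene), 1 of 11 excretory markers (lower) and 0 of 13 germline markers (edgeR; an unadjusted p under 0.05 for 1 in each direction). The part of tissue makeup, feeding state or developmental stage in the clec values was not tested.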

How the data were processed

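RNA from 8 libraries was analysed, 2 for each of 4 genotypes. The authors deposited whole-number counts per gene, and a log2 table that the deposited counts gave back exactly (163136 values; 0 differed by more than 1e-06 from the log2 of scaled counts plus 8), which was not used further. Reads were aligned with Bowtie to ce10 and edgeR 3.24.0 was used, per the submitters' processing notes. How reads were assigned to genes, and whether by strand, is not given in the sources used here. The kit for total RNA kept the strand, and single-end reads were 50 bp long, per the labels' protocols.

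Counts were fitted with edgeR 4.0.16 in R 4.3.3 (filterByExpr, which left 14355 genes and removed 6037 with 0.0278% of counts; TMM factors; 1 mean per group over all 8 libraries; two-sided quasi-likelihood F-test; a common dispersion of 0.00408, with 6.03 prior and 4 residual degrees of freedom). Benjamini-Hochberg adjustment ran over all tested genes of a comparison, and every adjusted p in the text is from this test unless DESeq2 1.42.0 is named. The SE of a log2 change is its size divided by the square root of F. CPM values use TMM-scaled totals, and n = 2 per group. Exon lengths and positions are those of a WBcel235 annotation (Ensembl) matched by gene ID, with no coordinate converted. With 30924676 to 57069281 counts per library, counting error limits mainly the low genes.

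Members and lists were chosen with earlier results of these data known. Named were all called members, the members of smallest p where fewer than 3 were called, the 10 highest per length, 12 members linked to infection, clec-42, and genomic neighbours of these. The data did not show that the shared letters a and b pair libraries (correlations of deviations -0.22 to 0.20). With 2 libraries per group these correlations cannot exclude a pairing or a shared batch. Alternatives were DESeq2, RLE factors, other filters, fits of 2 groups, a replicate block and leaving out each library.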

Additional observations from a re-analysis of the deposited data

Results flagged for a closer look

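The lamin Y59C effect on clec-42 differed between larvae without CEC-4 and larvae with it, by a test of the difference itself: the interaction was -1.15 (log2 ± SE 0.15, edgeR adjusted p = 0.0476). The effect was -0.80 without CEC-4 and 0.35 with it, and in DESeq2 the difference was -1.14 (adjusted p = 1.94e-11). The edgeR call ended with a filter of at least 1 CPM in 2 libraries (adjusted p = 0.0651) and with a replicate block (0.165). It also ended without several of the single libraries, as given above. Over the alternatives other than a replicate block, the adjusted p reached 0.300, with double mutant b left out.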

How the results depend on the processing

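Of the 19 calls of clec genes, DESeq2 made all 17 for which it gave an adjusted p (clec-55 and clec-206 against wild-type had none), RLE factors and no filter on low counts each kept 19, and a filter of at least 1 CPM in 2 libraries kept 17, losing clec-17 between the double mutant and lamin Y59C (adjusted p = 0.0512) and clec-42 in the interaction (0.0651). Fits on the libraries of the 2 groups alone kept 17 of 18, losing clec-57 (0.0562). No call changed sign under any alternative listed here, but 0 of 19 held whichever library was left out. DESeq2 raised the number of members called to 3 in lamin Y59C against wild-type and 5 in the double mutant against lamin Y59C. It called 13 against the cec-4 mutant and 5 in the interaction, but 8 in the double mutant against wild-type, fewer than against the cec-4 mutant. Over all genes its calls rose too, from 73 to 234, 97 to 236, 111 to 251, 5 to 73 and 317 to 435, in that order. With no filter 11 members were called against the cec-4 mutant and 2 in the interaction, where calls over all genes rose to 212 and 34. The 1 CPM filter gave 0 in the interaction, and the 2-group fit gave 8 against the cec-4 mutant. A replicate block by library letter, which the data did not show to pair the libraries, kept 6 of 19 calls; the members called with it were 4 in the double mutant against wild-type, 1 against lamin Y59C, 2 against the cec-4 mutant and 0 in the interaction. With each library left out in turn, the counts ran from 0 to 2 in lamin Y59C against wild-type, 0 to 11 in the double mutant against wild-type, 0 to 5 against lamin Y59C, 0 to 7 against the cec-4 mutant and 0 to 2 in the interaction; a group then left with 1 library was assumed to vary like the others. Calls over all genes also fell with the replicate block, and without either double mutant library, in each comparison of the double mutant and in the interaction. The cause of these changes was not tested. Depth limits the 81 members with counts that were too low to test, for which no statement of change is made.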
